A study of Mus musculus with 30 samples.

Results

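The 6 libraries described here are 1-month bone marrow macrophage cultures whose titles carry an extra marker. 3 of them are Terc-/- and have 519 in their titles, and 3 are wild type and have gaiwei in theirs. They were chosen by genotype, age and these title markers, and they are 6 of the 30 libraries of the series. The labels do not say what either marker stands for, and each marker occurs with 1 genotype only at this age, so marker and genotype cannot be told apart. All mice are labelled C57BL/6J. The cells were grown on slices of bone with M-CSF at 25 ng/ml and RANKL at 100 ng/ml until large cells with many nuclei were seen. Wild-type and Terc-/- cultures received the same cytokines. Used beside them are 3 Terc-/- and 3 wild-type 1-month libraries with no marker and 3 Terc-/- libraries titled 519 from mice of 6 months. The label gives Terc-/- as the whole genotype, and how many generations were bred without Terc is not stated in the labels. Nothing in the labels says whether the 3 libraries of a group came from separate mice, so the spread between libraries may be technical. The p-values measure that spread as estimated for each gene over all 10 groups of the series, not over these 6 libraries alone.

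Terc encodes the RNA that telomerase copies when it adds repeats to chromosome ends, and mice without it lose telomere repeats over successive generations. Macrophages from bone marrow need M-CSF to survive, and RANKL makes them fuse into osteoclasts, which dissolve bone with acid, the protease cathepsin K and the phosphatase Acp5. The same macrophages can instead make cytokines such as interleukin-6, interleukin-1 and colony-stimulating factors. This inflammatory program is driven in large part by the transcription factors NF-kB, AP-1 and C/EBP.

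The values are TPM, a level scaled for gene length and library total, and depth in reads is unknown. Between 11270 and 11586 genes reached 1 TPM in each of the 6 libraries, the 50 highest genes took 36.1% to 41.3% of the total, and mean correlations with libraries of the same group were 0.986 to 0.990. Terc itself (chr3:96414437-96414859, GRCm38) was listed at 0 in all 6 libraries and above 0 in 3 of all 30, where it reached at most 1.13 TPM, so the genotype label could not be checked on the transcript. Most markers of the labelled cell type were low. Calcr, the calcitonin receptor of osteoclasts, was at most 0.0604 TPM in the 6 libraries. Dcstamp, which cells need to fuse, lay between 0.771 and 1.84 TPM, against 40.2 to 174 TPM in the 15 unmarked libraries grown to large cells. Acp5 lay between 70.0 and 147 TPM in the 6 libraries and between 1860.0 and 12058 TPM in those 15. Mmp9, also an osteoclast marker, overlapped, at 454 to 1056 TPM in the 6 and 986 to 3809.5 TPM in the 15. Lyz2, a lysozyme of macrophages, reached 39836 to 67296 TPM in the 6 and 12896 to 41751 TPM in the 15. The macrophage gene Adgre1 was higher in the 6, at 1014 to 1767 TPM against 76.1 to 877 TPM. Cd68 (619 to 1054.5 against 607 to 1862 TPM) and Csf1r (401 to 638 against 183 to 835 TPM) overlapped. The acute-phase gene Saa3 was at 24105 to 81892 TPM in the 6 and 77.0 to 6463 TPM in the 15. By these levels the 6 libraries had little of most defining osteoclast transcripts. Macrophage transcripts were abundant, but not all were above the unmarked libraries. The 6 libraries are named below by their labels only.

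The question put to these libraries is which transcripts differ between Terc-/- and wild-type cultures at 1 month. The 519 Terc-/- libraries had less RNA of interleukin-6, interleukin-1, the colony-stimulating factors Csf2 and Csf3, the growth factors Ereg and Areg and the collagenase Mmp13 than the gaiwei wild type. They had more RNA of genes for lipid uptake and efflux, such as Lpl and Nr1h3, and of the NAD-making enzyme Nmnat1. Of 12614 genes tested, 431 (3.42%) passed limma's test at a Benjamini-Hochberg adjusted p under 0.05, of which 195 (1.55%) were higher in 519 Terc-/- and 236 (1.87%) lower. With a change of at least 1 on the log2 scale as well, 60 (0.476%) were higher and 114 (0.904%) lower. At an unadjusted p under 0.05, 1613 genes (12.8%) passed. The median log2 change of all genes tested was -0.01. Every log2 change here is Terc-/- minus wild type on the scale of log2(scaled TPM + 1), which understates the change of low genes. Leaving out 1 library moved the counts: without gaiwei replicate 1 they were 121 higher and 158 lower, without gaiwei replicate 2 they were 91 and 110, and without gaiwei replicate 3 they were 182 and 244. Without 519 replicate 1 they were 109 and 159, without replicate 2 they were 111 and 146, and without replicate 3 they were 112 and 160. 99 of the 431 genes kept their call in all 16 alternative settings in which they were tested, 38 of them higher and 61 lower. No called gene changed sign, though only another scaling, another pseudocount or an omitted library could change one.

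Inflammatory genes made up the largest group of lower calls among the gene lists. Of 29 list members tested, 12 fell and none rose (background 1.87% lower), and their median log2 change was -1.45 against -0.01 for all genes tested. 28 of the 29 changes were negative, and in 25 of the 29 all wild-type libraries lay above all Terc-/- libraries, against 13.4% of all genes tested. The 12 were the cytokines Il6, Il1a, Il1b, Il12b, Csf2 and Csf3, the interleukin-1 receptor antagonist Il1rn, the chemokines Ccl2, Ccl3, Cxcl3 and Cxcl5, and Ptgs2, the inducible enzyme of prostaglandin synthesis. The promoters of 3 of them are shown because they hold, within 250 bases, letters that fit the factors named above. Each is the stretch just before the RefSeq start (build GRCm38.p6, plus strand), with matches in capitals.
Il6: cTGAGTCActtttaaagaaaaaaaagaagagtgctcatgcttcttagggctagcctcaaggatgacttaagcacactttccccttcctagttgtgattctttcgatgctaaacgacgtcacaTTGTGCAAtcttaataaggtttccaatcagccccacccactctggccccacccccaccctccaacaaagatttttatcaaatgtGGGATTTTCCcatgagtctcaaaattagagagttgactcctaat
Cxcl3: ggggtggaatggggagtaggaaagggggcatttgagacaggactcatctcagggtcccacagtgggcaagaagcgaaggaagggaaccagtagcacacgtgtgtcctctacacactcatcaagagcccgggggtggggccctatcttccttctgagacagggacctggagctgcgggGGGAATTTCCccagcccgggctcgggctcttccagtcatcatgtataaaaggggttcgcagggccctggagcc
Ptgs2: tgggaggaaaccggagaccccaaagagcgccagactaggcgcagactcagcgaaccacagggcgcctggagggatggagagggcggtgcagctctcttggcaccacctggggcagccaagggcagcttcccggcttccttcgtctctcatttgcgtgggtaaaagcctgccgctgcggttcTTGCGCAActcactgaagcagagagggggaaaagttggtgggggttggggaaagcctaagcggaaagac

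These windows lie at chr5:30012864-30013113 for Il6, chr5:90785851-90786100 for Cxcl3 and chr1:150099781-150100030 for Ptgs2. Motifs were searched on both strands, as GGGA, any base, TT, any base and CC for NF-kB, TGANTCA for AP-1 and TTGCNNAA for C/EBP. The Il6 window held an NF-kB match 44 to 35 bases before the start, a C/EBP match on the minus strand at 128 to 121 bases and an AP-1 match at 249 to 243 bases. Cxcl3 held an NF-kB match 73 to 64 bases before the start, and Ptgs2 a C/EBP match 69 to 62 bases before it. Of the 12 fallen genes 9 had a window in the RefSeq table, of which 2 matched NF-kB, 3 AP-1 and 3 C/EBP. Of the 30 genes of the inflammatory list, called or not, 19 had a window. NF-kB matched in 5 of these 19, AP-1 in 3 and C/EBP in 5, so the matches are not particular to the fallen genes. Of all 32851 windows of this length 0.98% matched NF-kB, 6.75% AP-1 and 9.56% C/EBP. These matches are descriptions of letters, and binding was not measured.

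Il6 (ENSMUSG00000025746, chr5:30013114-30019981) was at 31.7, 27.6 and 37.8 TPM in the 519 Terc-/- libraries 1, 2 and 3 and at 473, 484 and 235 TPM in gaiwei wild type 1, 2 and 3. The groups did not overlap, the wild-type mean after scaling was 13.1-fold higher, and gaiwei replicate 3, the lowest wild-type library, was still well above every Terc-/- library. The change passed limma's test (log2 change -3.58, SE 0.32, adjusted p = 1.1e-07). Csf2, which drives the growth of granulocytes and macrophages, was at 4.98, 4.31 and 2.3 TPM in Terc-/- and 55.2, 55.9 and 34.8 TPM in wild type. Its wild-type mean after scaling was 13.3-fold higher and its groups were likewise apart (log2 change -3.49, SE 0.39, adjusted p = 3.5e-06, limma). Csf3, the granulocyte factor, was at 40.05, 61.3 and 54.6 TPM against 482, 438 and 201 TPM, again with gaiwei replicate 3 the lowest wild-type library and no overlap (log2 change -2.80, SE 0.45, adjusted p = 0.00039, limma). These 3 genes were called in every alternative setting run.

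In the interleukin-1 system both ligands and the antagonist fell. Il1b was at 834, 778 and 906 TPM in Terc-/- and 3558, 4461 and 2334 TPM in wild type (log2 change -2.04, adjusted p = 0.024, limma). Il1a was at 212, 167 and 194 TPM against 969, 1251 and 733 TPM (log2 change -2.39, adjusted p = 0.0098, limma). Il1rn, which blocks the receptor that both ligands use, was at 115, 85.3 and 116 TPM against 325, 509.6 and 336 TPM (log2 change -1.92, adjusted p = 0.00053, limma). In all 3 genes the lowest wild-type library was above the highest Terc-/- library. Only Il1rn of these 3 was called in every alternative run, since Il1a was not called without gaiwei replicate 2 (adjusted p = 0.079) and Il1b was not called without any one of 519 replicates 1, 2 and 3 or gaiwei replicates 1 and 2 (adjusted p up to 0.16).

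Ptgs2 was at 84.6, 78.8 and 97.4 TPM in Terc-/- and 324, 311 and 212 TPM in wild type, without overlap and with a call in every alternative run (log2 change -1.72, adjusted p = 0.0039, limma). Il12b, a chain of interleukins 12 and 23, was at 1.67, 1.44 and 0.875 TPM against 5.65, 6 and 4.02 TPM (log2 change -1.58, adjusted p = 0.0099, limma). Its call was not kept without 519 replicate 3 or gaiwei replicate 2 (adjusted p up to 0.078). The chemokine Cxcl3, which attracts neutrophils, was at 881, 984 and 1022 TPM against 3584, 4233 and 2626 TPM (log2 change -1.88, adjusted p = 0.045, limma), and Ccl3 at 639, 724 and 736 TPM against 2312, 2804 and 1569 TPM (log2 change -1.69, adjusted p = 0.034, limma). Both lost the call when any one of 5 libraries was left out, gaiwei replicate 3 being the exception (adjusted p up to 0.23 and 0.21). Ccl2, which attracts monocytes, was at 711, 804 and 688 TPM against 1344, 1910.0 and 1457 TPM (log2 change -1.14, adjusted p = 0.048, limma) and lost its call without any one of the 6 libraries (adjusted p up to 0.3). Cxcl5, another chemokine that attracts neutrophils, was at 9.5, 5.48 and 3.93 TPM in wild type against 1.45, 2.12 and 1.69 TPM in Terc-/- (log2 change -1.48, adjusted p = 0.00053, limma), and was not called with a pseudocount of 0.1.

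Members of the list that did not pass the test mostly lay on the same side. Cxcl1 was at 211, 229 and 244 TPM in Terc-/- and 718, 686 and 361 TPM in wild type (log2 change -1.36, adjusted p = 0.083, limma), and Nos2, the inducible nitric oxide synthase, at 30.3, 48.6 and 45.7 TPM against 161, 109 and 76.7 TPM (log2 change -1.48, adjusted p = 0.073, limma). Tnf was at 143, 143 and 129 TPM against 160.5, 192 and 167 TPM, a gap that did not pass (log2 change -0.37, adjusted p = 0.68, limma). Saa3, the most abundant member, was at 25593, 26366 and 24105 TPM against 51763, 81892 and 32537 TPM (log2 change -1.08, adjusted p = 0.6, limma). Ccl5 was the 1 member with a positive change, at 80.1, 102 and 84.5 TPM against 41.9, 64.4 and 56.1 TPM (log2 change 0.67, adjusted p = 0.53, limma). After scaling, gaiwei replicate 2 was the highest wild-type library in 26 of the 29 genes and gaiwei replicate 3 the lowest in 26, so that in most of the list gaiwei replicate 3 was the wild-type library nearest to Terc-/-. The count of 12 lower calls was 6 without gaiwei replicate 2, 7 without 519 replicate 3 and 13 without gaiwei replicate 3.

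**Figure D1:**
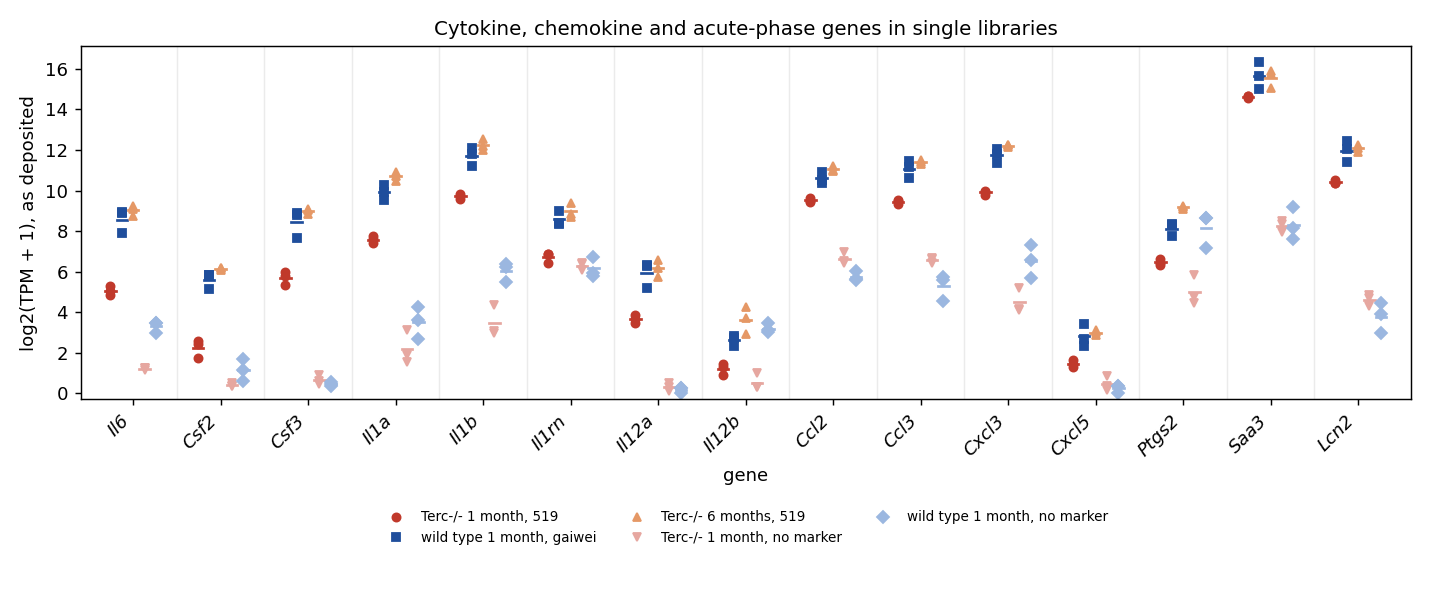
Levels of 15 cytokine, chemokine, enzyme and acute-phase genes (x axis) as log2(TPM + 1) of the deposited values (y axis) in single libraries of 5 groups of 3, with a short line at each group's mean. Red circles (519 Terc-/- at 1 month) lie below the blue squares (gaiwei wild type) in all 15 genes, and the orange triangles of 519 Terc-/- at 6 months lie near or above the blue squares.

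The named genes with the largest falls and rises were picked only from called genes whose groups did not overlap. Il6, Csf2, Csf3, Il1a, Lpl and Nr1h3 are among them, so their lack of overlap is by choice. Of all genes tested, 25.0% did not overlap. The other genes with the largest falls have varied roles. Ifitm1, an interferon-induced membrane protein (chr7:140967221-140969825), had the lowest log2 change of the named genes, at 2.02, 2.4 and 3.09 TPM in Terc-/- and 58.8, 51.3 and 25 TPM in wild type (log2 change -3.79, SE 0.47, adjusted p = 1.5e-05, limma). Ereg, a ligand of the epidermal growth factor receptor, was at 9.38, 9.95 and 11.2 TPM against 96, 79.3 and 52.8 TPM (log2 change -2.83, adjusted p = 1.5e-05, limma). Fst, which binds activin, was at 1.38, 1.26 and 1.59 TPM against 18.1, 15.5 and 8.05 TPM (log2 change -2.74, adjusted p = 4.7e-06, limma). Each of these 3 genes was called in every alternative run. Mmp13, a collagenase, was at 70.9, 66.2 and 79.2 TPM against 578, 456 and 264 TPM (log2 change -2.56, adjusted p = 0.00022, limma). Serpinb2, an inhibitor of plasminogen activators, was at 288, 252 and 337 TPM against 1588, 1769.9 and 1143 TPM (log2 change -2.40, adjusted p = 3.3e-05, limma). Il12a, the partner chain of Il12b in interleukin 12, was at 9.98, 13.7 and 11.7 TPM against 75.6, 79.2 and 35.4 TPM (log2 change -2.33, adjusted p = 4.1e-05, limma). In these 3 genes gaiwei replicate 3 was the wild-type library nearest to Terc-/-.

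U90926, a transcript named by its clone, fell from 3125, 2966 and 1037 TPM in wild type to 170.1, 171 and 159 TPM in Terc-/- (log2 change -3.72, adjusted p = 0.00051, limma). The 3 remaining named genes belong to families with similar copies, so that reads may have been divided between copies. Stfa3, a cysteine protease inhibitor, was at 368, 645 and 586 TPM against 6045, 5878 and 2758 TPM (log2 change -3.21, adjusted p = 0.0094, limma), and was not called without 519 replicate 1 (adjusted p = 0.061), gaiwei replicate 1 (adjusted p = 0.053) or gaiwei replicate 2 (adjusted p = 0.069). Wfdc21 was at 14.2, 15 and 11.9 TPM against 48.9, 120.4 and 50.1 TPM (log2 change -2.28, adjusted p = 0.0012, limma), and the acute-phase gene Saa1 at 1.56, 0.41 and 1.17 TPM against 11.3, 16.7 and 6.02 TPM (log2 change -2.77, adjusted p = 0.002, limma). Wfdc21 and Stfa3 lost the call with a pseudocount of 0.1, and Saa1 lost it in a fit of the 3 marked groups alone.

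The list of senescence genes and secreted factors of senescent cells had 4 falls and no rise among 22 members tested (background 1.87% lower), with a median log2 change of -0.27. The 4 were Ereg, Mmp13, Areg and Mmp3, which are secreted, and not the cell cycle inhibitors of the list. Areg, another ligand of the epidermal growth factor receptor, was at 19, 19.9 and 23 TPM in Terc-/- against 137, 99.1 and 53.1 TPM in wild type (log2 change -2.14, adjusted p = 0.0013, limma). Mmp3 was at 2.34, 2.58 and 4.18 TPM against 23.7, 9.83 and 6.8 TPM (log2 change -1.81, adjusted p = 0.003, limma) and was not called with a pseudocount of 0.1. Cdkn1a, the p53-driven inhibitor, was at 313, 277 and 279.9 TPM against 263, 233 and 287 TPM (log2 change 0.10, adjusted p = 0.87, limma), with overlapping groups. Cdkn2a was at 57.5, 68.8 and 63.2 TPM against 51.3, 42.3 and 52.3 TPM (log2 change 0.32, adjusted p = 0.75, limma) and did not overlap, but it did not pass.

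Several genes of lipid handling rose. Of 14 members of the list of lipid uptake, storage and efflux that were tested, 6 rose and none fell (background 1.55% higher), with a median log2 change of 0.51. 9 of the 14 changes were positive and 5 negative, and without a filter on low values the median of the 15 members then tested was 0.24. Lpl, which frees fatty acids from lipoproteins, was at 101, 84.7 and 77 TPM in Terc-/- and 22.6, 37.1 and 39.7 TPM in wild type (log2 change 1.36, SE 0.31, adjusted p = 0.012, limma). Nr1h3, the oxysterol receptor LXR alpha, was at 25.4, 25 and 22.8 TPM against 6.39, 12 and 9.76 TPM (log2 change 1.30, SE 0.29, adjusted p = 0.0098, limma). Abcg1, which exports cholesterol and is a known LXR target, was at 18.2, 16.9 and 16.1 TPM against 9.37, 7.67 and 10.4 TPM (log2 change 0.81, SE 0.20, adjusted p = 0.024, limma). All Terc-/- libraries were above all wild-type libraries in these 3 genes. Apoe, the lipoprotein that carries exported lipid, was at 3213, 3202 and 3392 TPM against 1942, 1008 and 1754 TPM (log2 change 1.06, adjusted p = 0.025, limma). Lipa, the acid lipase of lysosomes, was at 306, 262 and 286 TPM against 154, 87.4 and 200.5 TPM (log2 change 0.97, adjusted p = 0.0043, limma), and Fabp4, a fatty acid carrier, at 43, 44.9 and 51.6 TPM against 29, 15.6 and 21 TPM (log2 change 1.05, adjusted p = 0.019, limma). In these 3 genes gaiwei replicate 2 was the lowest wild-type library and no library crossed between groups. The count of 6 was 2 without gaiwei replicate 2 or without 519 replicate 2, and 3 without any one of 519 replicates 1 and 3 and gaiwei replicates 1 and 3. Abcg1 was not called without any one of the 6 libraries (adjusted p up to 0.12). Apoe was not called without any one library other than gaiwei replicate 1 (up to 0.21), Fabp4 without 519 replicate 2 or 3 or gaiwei replicate 2 or 3 (up to 0.14) and Lipa without gaiwei replicate 2 (0.059).

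Genes of sterol synthesis were lower by smaller amounts. Of 25 members of the list of cholesterol and fatty acid synthesis, 5 fell and none rose (background 1.87% lower), with a median log2 change of -0.48, and 24 of the 25 changes were negative. Idi1, an enzyme of the isoprenoid pathway, was at 11.2, 11.4 and 13 TPM in Terc-/- against 21.5, 20.1 and 20.5 TPM in wild type (log2 change -0.82, adjusted p = 0.0042, limma). Cyp51 was at 11.1, 9.93 and 12.1 TPM against 19.7, 18.9 and 16.8 TPM (log2 change -0.75, adjusted p = 0.0011, limma). Sqle, squalene epoxidase, was at 23.4, 18.4 and 23.2 TPM against 32, 34.6 and 34.1 TPM (log2 change -0.67, adjusted p = 0.0044, limma). Each of these 3 was lower in all Terc-/- libraries. The count of 5 was 3 without gaiwei replicate 2, where Sqle was among those not called (adjusted p = 0.0502), and 8 without gaiwei replicate 3. On TPM as deposited, without the added scaling, none of the 5 was called and 3 other members were.

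**Figure D2:**
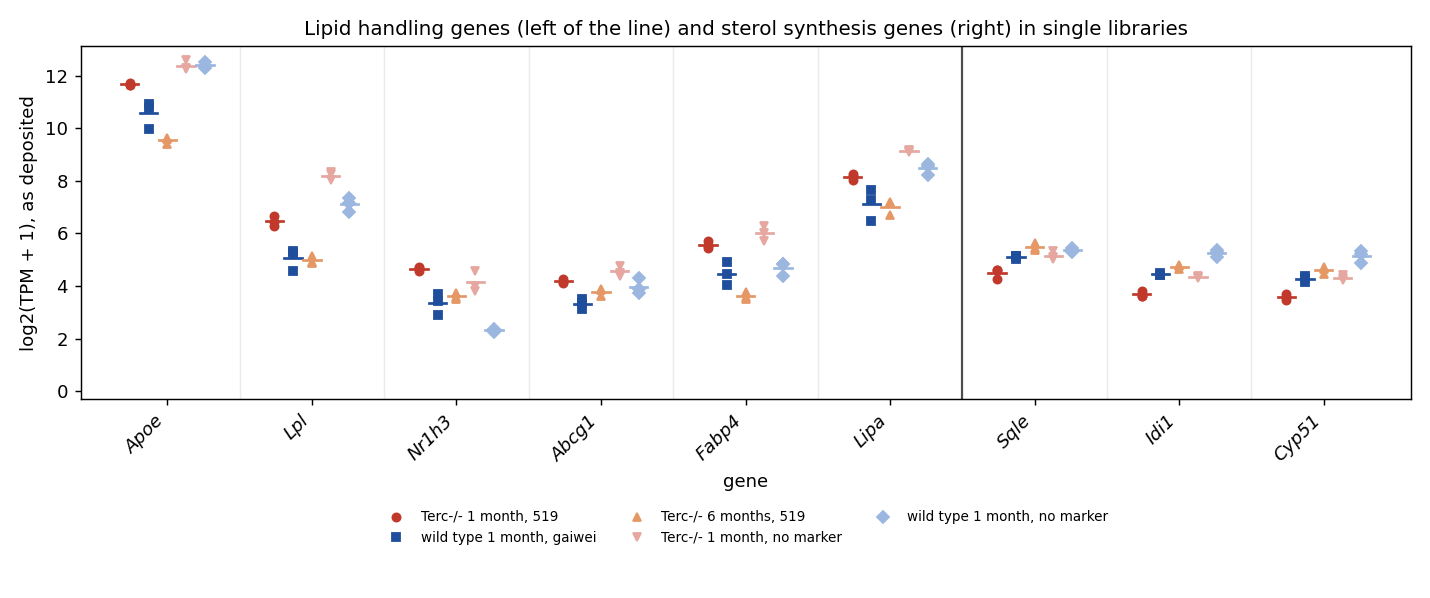
Levels of 6 lipid handling genes (left of the vertical line) and 3 sterol synthesis genes (right), as log2(TPM + 1) of the deposited values, in single libraries of 5 groups of 3, with a short line at each group's mean. Red circles (519 Terc-/- at 1 month) lie above the blue squares (gaiwei wild type) on the left and below them on the right.

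The genes with the largest rises came from several families. Slc13a3, a sodium-dependent carrier of dicarboxylates (chr2:165405028-165473230), was at 56.3, 48.5 and 48.6 TPM in Terc-/- and 4.11, 11.5 and 8.87 TPM in wild type (log2 change 2.59, SE 0.29, adjusted p = 4.7e-06, limma). Nmnat1, the nuclear enzyme that makes NAD (chr4:149467572-149485202), was at 29.5, 25.7 and 25.8 TPM against 7.05, 7.07 and 9.13 TPM (log2 change 1.67, SE 0.15, adjusted p = 1.2e-07, limma). Eef1a2, a translation elongation factor, was at 15, 13.1 and 11.9 TPM against 2.74, 1.95 and 4.14 TPM (log2 change 1.93, adjusted p = 2.9e-05, limma). Terc-/- means after scaling were 5.96-fold higher for Slc13a3, 3.37-fold for Nmnat1 and 4.46-fold for Eef1a2. Prl2c2 was at 26.8, 31.7 and 24.1 TPM against 3.61, 5.33 and 2.3 TPM (log2 change 2.65, adjusted p = 0.00032, limma) and Prl2c3 at 18, 19.9 and 17.8 TPM against 2.28, 2.8 and 1.44 TPM (log2 change 2.70, adjusted p = 0.00015, limma). These 2 proliferin genes of the prolactin family are near-identical copies, so how their reads were divided is uncertain. All 5 of these genes were called in every alternative run.

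The other genes with the largest rises also have varied roles. Fcna, a ficolin that starts the lectin route of complement, was at 12.7, 15.7 and 14.1 TPM in Terc-/- against 3.65, 3.44 and 3.77 TPM in wild type (log2 change 1.72, adjusted p = 0.00068, limma). Cd55, which protects cells from complement, was at 9.15, 7.41 and 9.88 TPM against 3.25, 3.07 and 2.92 TPM (log2 change 1.27, adjusted p = 0.00058, limma). Hpse, the enzyme that cleaves heparan sulfate, was at 18.8, 14.1 and 15.5 TPM against 7.04, 3.99 and 7.83 TPM (log2 change 1.26, adjusted p = 0.0015, limma). These 3 kept their calls in every alternative run. Treml4, a receptor on myeloid cells, was at 44.9, 28.4 and 31.1 TPM against 7.86, 11.2 and 17.5 TPM (log2 change 1.45, adjusted p = 0.0023, limma), and Dynlt1b, a dynein light chain with near-identical copies, at 394, 380.0 and 361 TPM against 148, 151 and 163 TPM (log2 change 1.24, adjusted p = 3e-06, limma). Rasgrp2, an activator of Rap1, was at 28.3, 29 and 27.6 TPM against 9.44, 10.02 and 7.63 TPM (log2 change 1.53, adjusted p = 0.01, limma), but was not called without 519 replicate 2 (adjusted p = 0.051) or gaiwei replicate 3 (adjusted p = 0.056). Fgd2, an activator of Cdc42, was at 11.2, 9.12 and 6.8 TPM against 3.21, 1.38 and 6.74 TPM (log2 change 1.24, adjusted p = 0.0099, limma), with a lowest Terc-/- library only just above gaiwei replicate 3. Its call was not kept without 519 replicate 1 or 2 or gaiwei replicate 2 (adjusted p up to 0.12). Lpl and Nr1h3, described above, were the other 2 named genes, and they lost the call without gaiwei replicate 1 (adjusted p = 0.099 for Lpl and 0.082 for Nr1h3), Lpl also without 519 replicate 1 (0.065) or 519 replicate 2 (0.052).

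Most defining genes of osteoclasts were low in both groups, as given above. Of 24 genes of the resorption machinery, 1 rose and 1 fell (background 1.55% higher and 1.87% lower), with a median log2 change of 0.02. Ctsk, cathepsin K, was at 30.02, 23.5 and 27.4 TPM in Terc-/- and 52.1, 74.4 and 66.5 TPM in wild type (log2 change -1.28, SE 0.28, adjusted p = 0.0076, limma), without overlap, and was not called without gaiwei replicate 2 (adjusted p = 0.076). Plekhm1, which osteoclasts need for vesicle transport, was at 27.4, 23.9 and 24.5 TPM against 14.7, 13.7 and 18 TPM (log2 change 0.64, SE 0.15, adjusted p = 0.013, limma) and was not called without 519 replicate 1 or gaiwei replicate 1 or 2 (adjusted p up to 0.069). Acp5 was at 146, 147 and 119 TPM against 69.96, 142 and 125 TPM (log2 change 0.29, adjusted p = 0.86, limma) and Mmp9 at 454, 476 and 521 TPM against 862, 1056 and 664 TPM (log2 change -0.86, adjusted p = 0.17, limma). The Acp5 groups overlapped and the Mmp9 groups did not, although Mmp9 did not pass the test.

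None of 25 receptors and transcription factors of osteoclasts was called by limma (median log2 change 0.02), and 3 had an unadjusted p under 0.05. Nfatc1, the transcription factor that drives osteoclast formation, was at 8.82, 7.25 and 7.29 TPM in Terc-/- and 7.44, 6.8 and 10.5 TPM in wild type (log2 change -0.11, adjusted p = 0.95, limma). Tnfrsf11a, the RANKL receptor, was at 17, 12.3 and 13.2 TPM against 11.8, 8.04 and 15.9 TPM (log2 change 0.22, adjusted p = 0.82, limma). Their groups overlapped. None of 14 fusion genes was called by limma (median -0.02, 3 at an unadjusted p under 0.05), with Dcstamp at 1.16, 0.95 and 0.771 TPM against 1.01, 1.65 and 1.84 TPM (log2 change -0.42, adjusted p = 0.69, limma). Of 15 negative regulators of osteoclast formation, 1 fell, Socs3 (background 1.87% lower). Socs3, an inhibitor of cytokine signalling, was at 164, 150.0 and 152 TPM against 228, 308 and 241 TPM (log2 change -0.78, adjusted p = 0.026, limma). Its call was not kept without gaiwei replicate 2 or without any one of the 519 libraries (adjusted p up to 0.24).

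Matrix genes lay lower in most cases. Of 25 tested, 3 fell and none rose (background 1.87% lower), with a median log2 change of -0.58 and 23 negative changes. Thbs1, thrombospondin, was at 148, 110.5 and 150.4 TPM in Terc-/- and 559, 741 and 555 TPM in wild type (log2 change -2.23, adjusted p = 0.00031, limma). Dcn, the proteoglycan decorin, was at 37.4, 27.8 and 32.9 TPM against 98.2, 196 and 102 TPM (log2 change -1.98, adjusted p = 0.0076, limma), and Loxl2, which crosslinks collagen, at 9.06, 6.68 and 9.87 TPM against 24.4, 29.6 and 29.7 TPM (log2 change -1.69, adjusted p = 0.012, limma). Thbs1 was called in every alternative run. Without gaiwei replicate 2, Dcn (adjusted p = 0.089) and Loxl2 (adjusted p = 0.079) were not called and the count was 1, and Loxl2 was not called without 519 replicate 2 either (adjusted p = 0.073). None of 12 contractile genes was called, although all 12 changes were negative (median -0.53), and 1 had an unadjusted p under 0.05 in limma.

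Interferon-stimulated genes varied widely among the Terc-/- libraries. Of 38 genes of the type I response, 2 rose and none fell (background 1.55% higher), with a median log2 change of 0.42. Rtp4 was at 13.1, 4.29 and 1.99 TPM in Terc-/- and 0.892, 1.52 and 1.93 TPM in wild type (log2 change 1.39, adjusted p = 0.023, limma). Ifit3 was at 5.23, 3.93 and 1.49 TPM against 1.9, 0.316 and 0.972 TPM (log2 change 1.21, adjusted p = 0.049, limma). 519 replicate 1 was the highest Terc-/- library in 32 of the 38 genes and replicate 3 the lowest in 31, and the Ifit3 groups overlapped. The count was 0 without 519 replicate 1, without 519 replicate 2 or without gaiwei replicate 2, it was 1 without gaiwei replicate 1, and it was 4 without 519 replicate 3. It was 0 on TPM as deposited and 1 with a pseudocount of 0.1 or with no filter on low values. It was also 1 in a fit of only the groups compared and in one of the 3 marked groups alone, where neither Rtp4 nor Ifit3 was called.

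Other lists held 1 or 2 calls each, against 3.42% of all genes tested. Of 27 p53 targets, Gdf15 rose and Ddit4 fell (median 0.10). Ddit4, an inhibitor of mTOR, was at 12.8, 14 and 16.2 TPM in Terc-/- against 49.9, 47.7 and 33.2 TPM in wild type (log2 change -1.59, adjusted p = 0.0013, limma), and Gdf15 at 6.1, 7.18 and 6.61 TPM against 3.53, 3.06 and 2.71 TPM (log2 change 0.90, adjusted p = 0.043, limma), a call lost without any one of the 6 libraries (adjusted p up to 0.18). Of 18 genes of the interferon gamma response and MHC class II, H2-DMb1, which helps load peptides, rose and Socs1 fell (median -0.08). H2-DMb1 was at 38.2, 42.8 and 42.7 TPM against 20.7, 20.4 and 25.1 TPM (log2 change 0.83, adjusted p = 0.0002, limma), and Socs1 at 9.14, 11.6 and 9.24 TPM against 34.4, 55.3 and 27.3 TPM (log2 change -1.89, adjusted p = 3.3e-05, limma). Both were called in every alternative run. Of 28 lysosome genes 2 rose (background 1.55% higher), among them Ctsb (log2 change 0.46, adjusted p = 0.025, limma), with a median of 0.15 over the list. Of 21 glycolysis and hypoxia genes, Egln3 fell (log2 change -0.85, adjusted p = 0.014, limma; list median -0.14), and of 22 immediate early and heat shock genes, Jun fell (log2 change -0.38, adjusted p = 0.025, limma; list median -0.07). Ctsb and Jun lost the call without any one library other than gaiwei replicate 3 (adjusted p up to 0.095 and 0.15). Egln3 lost it without 519 replicate 1 or 2 or gaiwei replicate 2 (up to 0.14).

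No gene was called among 17 telomerase and telomere proteins (median log2 change 0.01), 25 DNA repair genes (0.03), 39 cell cycle genes (-0.07), 43 nuclear genes of oxidative phosphorylation (0.06), 13 mitochondrial transcripts (0.11), 18 genes of the ATF4 response and amino acid synthesis (-0.15) or 13 oxidative stress genes (0.15). At an unadjusted p under 0.05 in limma, 1 of the DNA repair genes, 2 of the cell cycle genes, 3 of the oxidative stress genes and none of the other 4 lists passed. Of the 83 genes within 500 kb of Terc, 24 were tested and none was called (median 0.08), with 2 at an unadjusted p under 0.05. A further list of 10 genes that had been written down as neighbours of Terc lies elsewhere on chromosome 3 in the mouse, and of its 5 tested members none was called (median -0.10) or had an unadjusted p under 0.05.

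**Figure D3:**
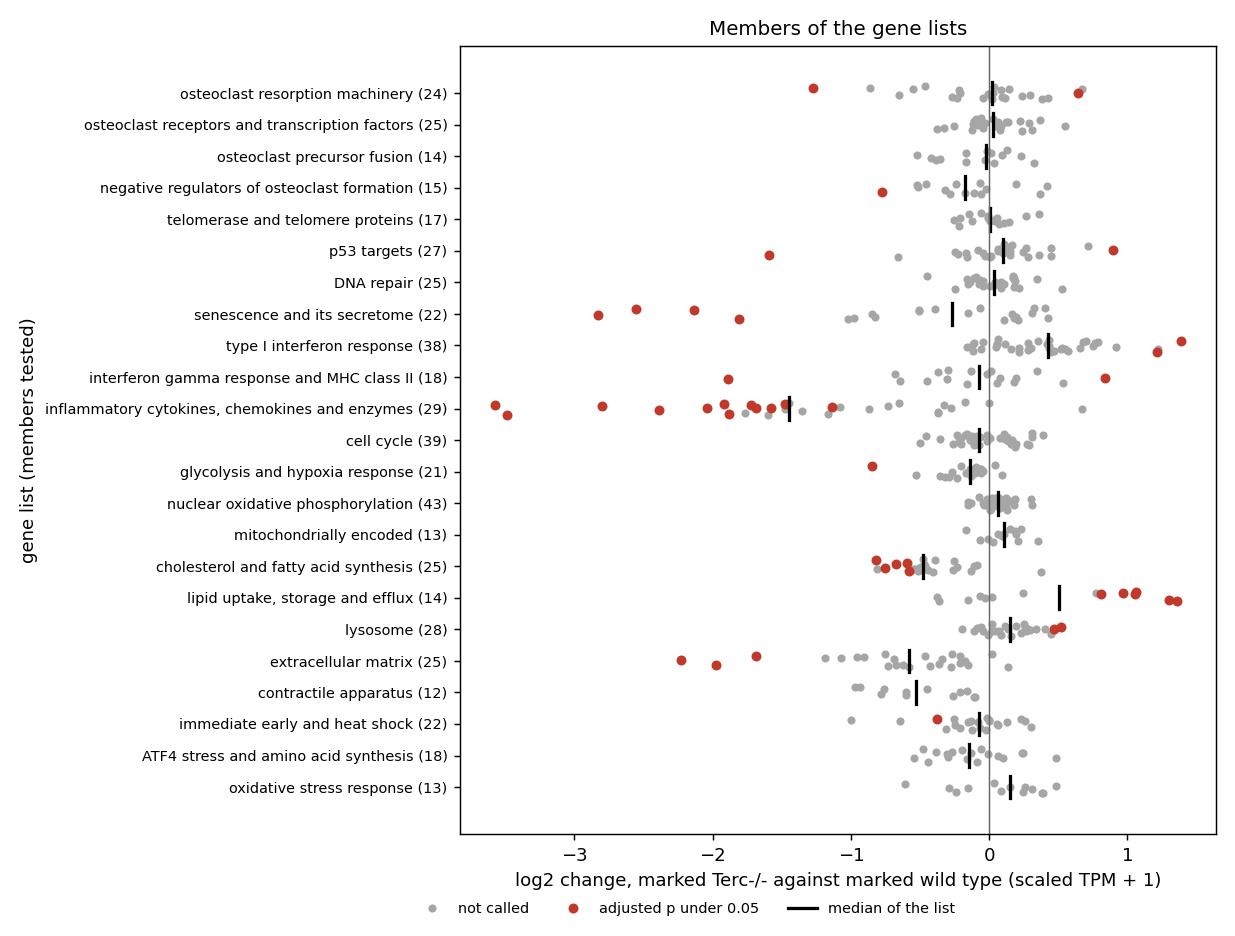
Log2 change of each tested member (points) of the pathway lists (rows, with the number tested in brackets) between 519 Terc-/- and gaiwei wild type, with called genes in red and the list median as a black line. Red points to the left of 0 gather in the inflammatory list (12), and those to the right in the lipid uptake, storage and efflux list (6).

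Markers of other cells moved in part with these groups. Of 20 macrophage markers 17 were tested, C1qc rose and Arg1 fell (background 1.55% higher and 1.87% lower). The median log2 change of the 17 was 0.48. The summed level of the 20 markers was 72978 to 82779 TPM in Terc-/- and 52139 to 62403 TPM in wild type. Lyz2 alone was a large part of it, at 39836 to 67296 TPM over the 6 libraries. C1qc, a chain of complement C1q, was at 1803, 1775 and 1744 TPM against 978, 661 and 1281 TPM (log2 change 0.86, adjusted p = 0.006, limma), and was not called without gaiwei replicate 2 (adjusted p = 0.076). Arg1, arginase, was at 1160.4, 1101 and 1278 TPM against 2652, 2752 and 2664 TPM (log2 change -1.24, adjusted p = 0.026, limma), a call lost without any library but gaiwei replicate 3 (adjusted p up to 0.13). Of 14 neutrophil markers 5 were tested and 1 fell, Mmp8 (background 1.87% lower). Mmp8, a collagenase, was at 143, 127 and 163 TPM against 409, 465 and 376 TPM (log2 change -1.58, adjusted p = 0.012, limma). Its call was lost without 519 replicate 1 (adjusted p = 0.052), 519 replicate 2 (0.056) or gaiwei replicate 2 (0.088). The neutrophil list summed to 1450 to 1521 TPM in Terc-/- and 1835 to 2998 TPM in wild type, most of it S100a8, while Fcnb was listed at 0 in all 6. In bulk RNA, fewer cells of a type and less RNA per cell cannot be told apart, and the part of these markers in the inflammatory and lipid changes was not tested.

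Markers of lymphocytes, mast cells and vessels were near 0. The summed level of 12 T and NK cell markers was at most 1.72 TPM in any of the 6 libraries, that of 10 B cell markers at most 7.32 TPM, that of 10 mast cell and basophil markers at most 10.5 TPM and that of 10 endothelial markers at most 10.2 TPM. The 11 dendritic cell markers summed to 33.2 to 46.9 TPM in Terc-/- and 27.9 to 34.6 TPM in wild type. Of 3 B cell, 1 T and NK cell, 2 mast cell, 4 endothelial and 3 dendritic cell markers tested, none was called (medians 0.15, -0.38, -0.22, -0.30 and -0.09), and at an unadjusted p under 0.05 in limma 1 B cell, 1 endothelial and 1 dendritic cell marker passed. The 12 erythroid and megakaryocyte markers summed to 8326 to 9941 TPM in Terc-/- and 10881 to 15069 TPM in wild type, which was almost all Pf4, and the globin genes Hbb-bs and Hba-a1 were under 1 TPM. None of its 3 tested members was called or had an unadjusted p under 0.05 in limma (median -0.53). The 15 stromal and osteoblast markers summed to 13.2 to 20.7 TPM against 11.8 to 17.0 TPM. Of 9 tested 1 rose, Bglap2 (background 1.55% higher). Its log2 change was 1.49 (adjusted p = 0.048, limma), beside a list median of 0.03. The call was lost without any library but gaiwei replicate 1 (adjusted p up to 0.38). The 1 adipocyte marker tested was Fabp4, which is in the lipid list too, while 6 of the 8 were listed at 0.

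The same genotypes at the same age are also present without title markers, in 6 libraries that share no sample with the 519 and gaiwei ones. There, 3900 genes (30.9%) were called, 1950 in each direction (15.5% each). Of the 195 genes higher in 519 Terc-/-, 95 (48.7%) were also higher in the unmarked Terc-/- libraries, which is 4.87% of the 1950 higher there, and 12 were lower. Of the 236 lower genes, 87 (36.9%) were also lower there, which is 4.46% of the 1950 lower there, and 20 were higher. The difference of the 2 comparisons was itself tested in limma, and 1345 genes (10.7%) passed, 710 (5.63%) higher and 635 (5.03%) lower in the marked comparison. The 710 became 434 without unmarked Terc-/- replicate 1 and 470 without 519 replicate 3. The difference passed for 58 of the 195 and 100 of the 236. These genes were chosen for the marked change, which is part of the difference, so their shares cannot be set against the 10.7%. The unmarked wild-type libraries expressed Xist at 46.6 to 84.1 TPM and the Y-linked Ddx3y at no more than 0.0222 TPM, whereas the 6 marked libraries had Xist at no more than 0.0036 TPM and Ddx3y at 13.6 to 18.8 TPM. The unmarked comparison therefore also compares libraries of opposite sex pattern, and the part of this in its calls was not tested.

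Inflammatory genes differed between the 2 comparisons. Of the 29 tested, 7 rose and 6 fell in the unmarked comparison (median log2 change -0.03), and the difference was called lower for 13 and higher for 1, with a median of -1.08. Il6 fell in both, from 6.86, 9.85 and 10.1 TPM in unmarked wild type 1, 3 and 4 to 1.34, 1.21 and 1.38 TPM in unmarked Terc-/- 1, 3 and 4 (log2 change -2.03, adjusted p = 3.6e-05, limma). On this scale it fell by more in the marked libraries (difference -1.55, adjusted p = 0.026, limma). The unmarked Terc-/- levels of Il6 are near the added 1 TPM, which understates the unmarked fall and enlarges this difference. Csf3 was at 0.353, 0.457 and 0.275 TPM in unmarked wild type and 0.84, 0.49 and 0.388 TPM in unmarked Terc-/-, without a call (log2 change 0.20, adjusted p = 0.77, limma; difference -3.01, adjusted p = 0.0034). Ccl3 was higher in unmarked Terc-/-, at 101, 83.5 and 96.4 TPM against 51.3, 47.6 and 22.6 TPM (log2 change 1.30, adjusted p = 0.03, limma; difference -2.99, adjusted p = 0.0036). The unmarked libraries were far lower in these transcripts than the marked ones in both genotypes. Every unmarked Csf3 value was under 1 TPM, so its unmarked change is poorly measured. Il1b fell in both comparisons (unmarked log2 change -2.52, adjusted p = 0.0006, limma), and the difference did not pass (0.47, SE 0.72, adjusted p = 0.77).

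Of the 14 genes of lipid uptake and efflux, 8 rose and 2 fell in the unmarked libraries (median 0.61), and the difference passed for 1, higher, beside 10.7% of all genes tested. Lpl was at 258, 321 and 302 TPM in unmarked Terc-/- and 163, 142 and 112 TPM in unmarked wild type (log2 change 1.12, adjusted p = 0.0086, limma; difference 0.24, SE 0.44, adjusted p = 0.81). Nr1h3 was at 15.1, 22.9 and 13.2 TPM against 3.98, 3.81 and 4.19 TPM (log2 change 1.84, adjusted p = 4.4e-05, limma; difference -0.54, SE 0.41, adjusted p = 0.48). Apoe did not pass in the unmarked libraries (log2 change 0.02, adjusted p = 0.96, limma; difference adjusted p = 0.084). Of the 25 genes of sterol and fatty acid synthesis, 11 fell and 1 rose in the unmarked libraries (median -0.39), and the difference passed for 3 (2 lower and 1 higher). Of the 25 matrix genes 21 fell and 1 rose there, with a median of -2.64, and the difference was called higher for 18 and lower for 1.

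**Figure D4:**
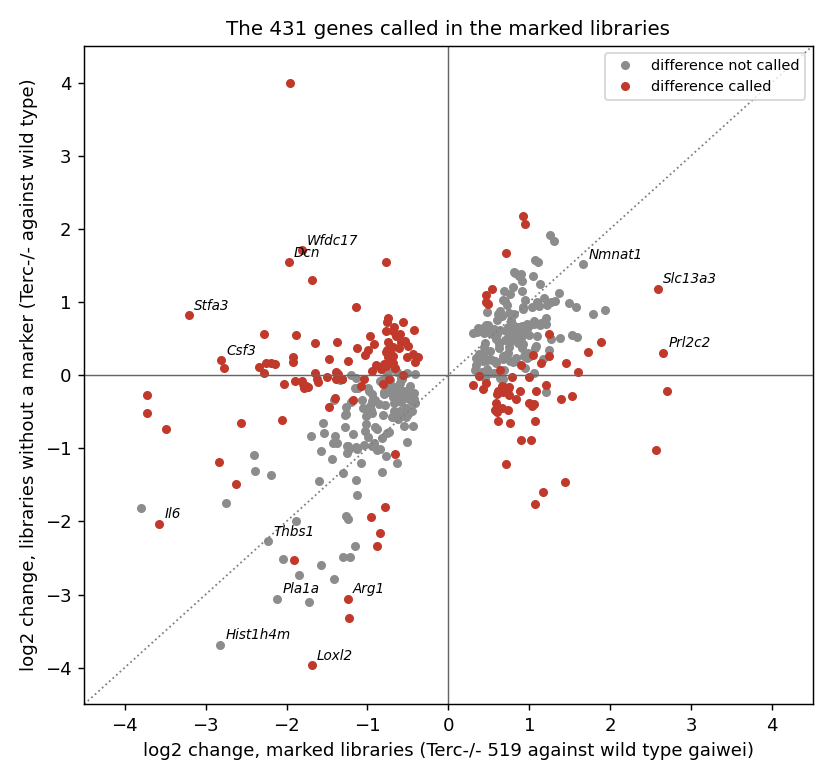
Log2 change in the marked libraries (x axis) against that in the libraries without a marker (y axis) for the 431 genes called in the marked comparison, with genes whose difference was called in red and the line of equal change dotted. Nmnat1, Thbs1 and Hist1h4m lie in the quadrants of like direction. Dcn, Wfdc17 and Stfa3 have a negative change in the marked and a positive one in the unmarked comparison, where Stfa3 was not called.

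A few genes separated the 1-month genotypes with and without a marker by a wide margin. They were chosen after their values were seen. Nmnat1 was at 35, 36.2 and 34.2 TPM in unmarked Terc-/- and 13, 11.7 and 11.1 TPM in unmarked wild type (log2 change 1.51, adjusted p = 1.3e-07, limma), beside the values given above for the marked libraries. In the 519 Terc-/- libraries of 6 months it was at 6.67, 5.79 and 7.72 TPM, close to wild type of 1 month. Gm15446 (chr5:109923400-109943936), a predicted gene, was listed at 0 in all 3 libraries of 519 Terc-/- and in all 3 of unmarked Terc-/- at 1 month. It was at 2, 1.71 and 2.32 TPM in gaiwei wild type, at 3.21, 6.58 and 6.3 TPM in unmarked wild type and at 2.31, 2.26 and 2.22 TPM in 6-month 519 Terc-/- (marked adjusted p = 1.2e-10, unmarked adjusted p = 6.1e-14, limma). In wild type of 6 and 20 months grown to large cells it reached at most 0.0303 TPM, so that neither genotype nor age alone separates the groups with and without it. Hist1h4m (chr13:21811746-21812147), a histone H4 gene with near-identical copies, had the same pattern, with 0 in both 1-month Terc-/- groups, 6.53, 2.34 and 5.25 TPM in gaiwei wild type, 5.41, 12.9 and 29 TPM in unmarked wild type and 0 in wild type of 6 and 20 months (marked adjusted p = 9.5e-06, limma).

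Eif2s3y (chrY:1010543-1028847), a translation initiation gene of the Y chromosome, was at 12.1, 12.4 and 12.5 TPM in 519 Terc-/- and 52.9, 40.8 and 51.5 TPM in gaiwei wild type (log2 change -1.95, SE 0.14, adjusted p = 4.2e-09, limma). Unmarked 1-month Terc-/- had 14.4, 13.8 and 19.2 TPM, so both 1-month Terc-/- groups were low, while 6-month 519 Terc-/- had 58.6, 55.9 and 71.7 TPM. Ddx3y, another Y-linked gene, was at 14.3, 13.6 and 16.1 TPM against 16.9, 15.9 and 18.8 TPM and did not pass (log2 change -0.27, adjusted p = 0.34, limma). Of 7 genes tested on the Y chromosome 3 were called (42.9%), Eif2s3y among them, against 3.42% of all genes tested. 3 further genes were listed at 0 in all libraries of 1 marked group and at 1 TPM or more in all of the other. Zfp965 was at 2.57 to 3.73 TPM and Hist1h3g at 1.10 to 1.51 TPM in gaiwei wild type and both at 0 in 519 Terc-/-. Neither repeated this in the unmarked 1-month libraries. There Zfp965 lay between 0 and 5.88 TPM in Terc-/- and between 0 and 3.67 TPM in wild type. Hist1h3g was at most 0.436 TPM in unmarked Terc-/- and at 0 in unmarked wild type. The pseudogene Gm12328 was at 2.93 to 3.90 TPM in 519 Terc-/- and at 0 in the other 27 libraries. Without counts these zeros give no lower bound on a fold.

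**Figure D5:**
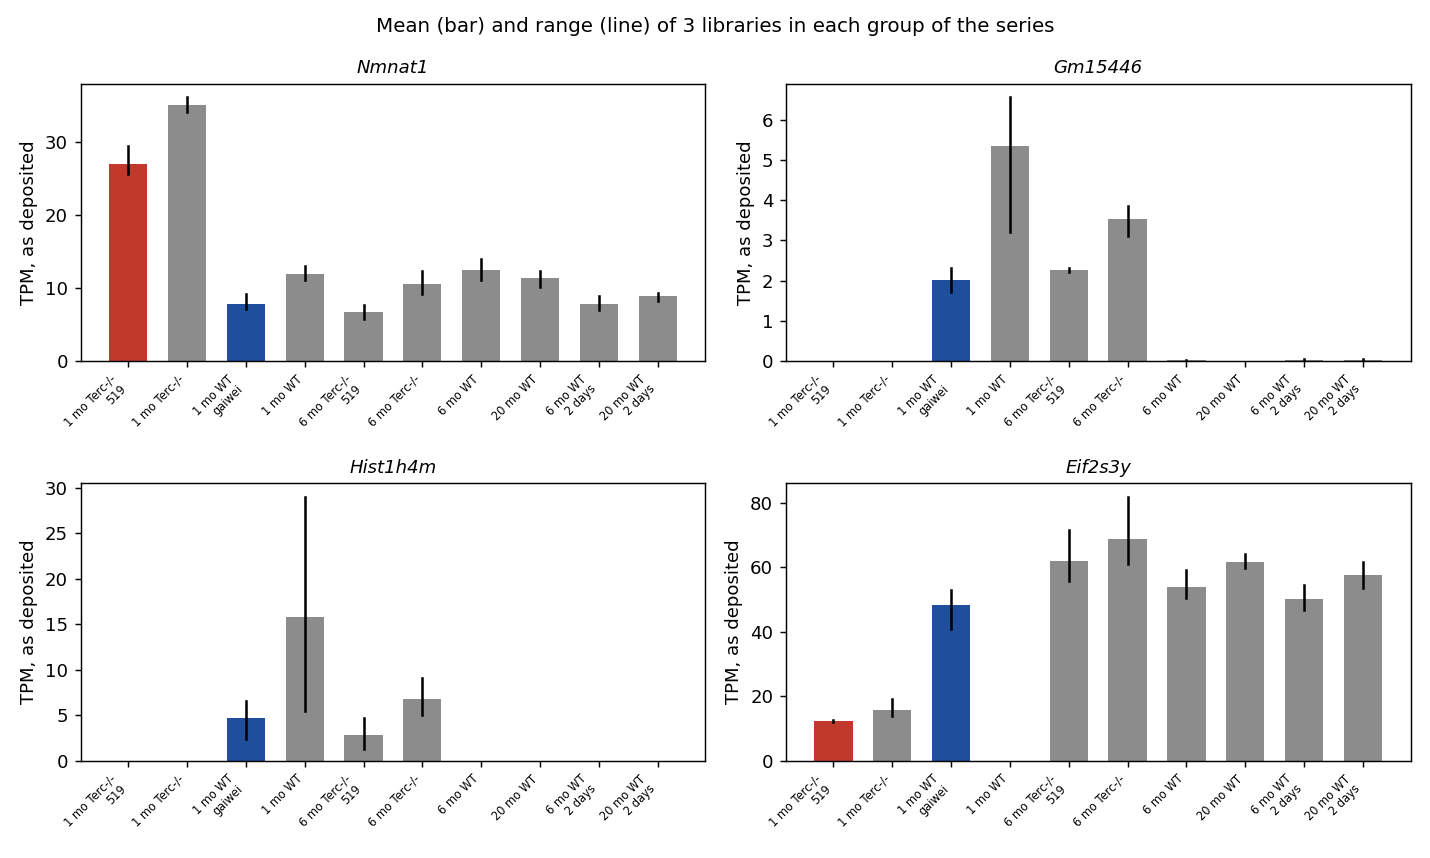
Mean deposited TPM (bars) and range (lines) of 3 libraries in each of the 10 groups of the series for 4 genes, with 519 Terc-/- at 1 month in red and gaiwei wild type in blue. Both 1-month Terc-/- groups are high in Nmnat1, at 0 in Gm15446 and Hist1h4m, and low in Eif2s3y, while the 6-month Terc-/- groups are low in Nmnat1 and express the other 3. The missing bar in the Eif2s3y panel is unmarked wild type of 1 month, which lacks the Y-linked transcripts.

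The 6-month 519 Terc-/- libraries were nearer to gaiwei wild type than to 519 Terc-/- of 1 month for most called genes. This was so for 172 of the 195 higher and 229 of the 236 lower genes, as a description, since the called genes were chosen on the 1-month libraries and were separate there by choice. Il6 was at 551, 601 and 426 TPM in these libraries and Csf3 at 532, 541 and 456 TPM, at or above most gaiwei wild-type values of 1 month. Slc13a3 was at 3.72, 3.49 and 4.38 TPM and Lpl at 28.3, 29.5 and 34.4 TPM, far below 519 Terc-/- of 1 month. Prl2c2 was at 1.99, 4.1 and 6.89 TPM and Eef1a2 at 3.35, 2.77 and 3.17 TPM. Of the 14 lowest named genes all 14 were nearer to wild type, and of the 14 highest 13 were, the exception being Cd55 at 6.38, 7.08 and 8.46 TPM. Age and genotype differ together between 6-month Terc-/- and 1-month wild type, and no test was made.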

How the data were processed

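RNA was captured with oligo(dT) beads and sequenced on an Illumina NovaSeq, per the labels. The authors deposited 5 tables of 45706 genes in 30 libraries. Each deposited column sums to 1000000, so the values were taken as TPM; the headers name no unit. The submitters' processing notes name HTSeq and mm10, but no label or header states an aligner. Symbols were matched to 45143 gene identifiers, and 563 had none. Gene coordinates came from GENCODE M21 (GRCm38).

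TPM were divided by trimmed-mean scaling factors (30% of log ratios and 5% of levels trimmed) and taken as log2(scaled TPM + 1). Genes whose mean over all 30 libraries was 1 TPM or more, 12614 in number, were fitted in limma 3.58.1 (R 4.3.3) with 10 group means, a mean-variance trend and robust moderation, leaving 20 residual degrees of freedom. All groups shared 1 estimate of the spread per gene. The median over genes of the SD within a group, on the log2 scale, was 0.1324 in 519 Terc-/- and 0.1495 in gaiwei wild type. Over the 10 groups it ran from 0.0998 to 0.3962. Calls used Benjamini-Hochberg adjusted p under 0.05. The steps were tested on simulated data. Exact permutation of 3 against 3 libraries cannot give p below 0.1, so single genes have only the limma test. Printed levels are deposited TPM. Tables were read with Python 3.11.15, pandas 2.3.3 and numpy 2.4.6, and plots drawn with matplotlib 3.10.9.

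Named genes are Terc, the 14 highest and 14 lowest log2 changes among called genes that averaged 5 TPM or more in the 6 libraries, with groups that did not overlap and a symbol that is neither provisional nor sex-linked, the 5 highest and 5 lowest for the difference of the comparisons, at most 5 genes per described list by smallest p, and all genes of the osteoclast lists. Others were chosen after their values were seen. The groups and the 35 gene lists were chosen with earlier results of these data known. Of 681 list entries 680 matched a gene. The alternatives tried were other scalings, pseudocounts, filters, sample sets, a replicate block and the omission of each library. Some single-gene results are not reported here.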

Additional observations from a re-analysis of the deposited data

Results flagged for a closer look

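These genes stood out because the test of the difference between the marked and the unmarked genotype change passed in limma, for 710 genes higher and 635 lower in the marked comparison. Crabp2, a retinoic acid carrier, had a difference of 5.37 on the log2 scale. It was at 4.45, 1.61 and 2.32 TPM in 519 Terc-/-, 3.35, 6.27 and 4.71 TPM in gaiwei wild type, 1.58, 2.76 and 1.92 TPM in unmarked Terc-/- and 103, 318 and 319 TPM in unmarked wild type. The matrix gene Mfap5 (4.67) and the stromal surface gene Cd248 (3.66) were likewise high in unmarked wild type alone, at 37.2, 123 and 145 TPM and 21.4, 81.2 and 83.1 TPM, and at most 3.85 TPM and 5.2 TPM in the other 3 groups of 1 month. H2-Aa (3.84), a chain of MHC class II, was at 114, 116 and 115 TPM in unmarked wild type and 4.3, 2.11 and 12.9 TPM in unmarked Terc-/-, but at most 1.21 TPM in the 6 marked libraries. Igkv5-43 (4.42), an antibody gene segment, was at 78.8, 127 and 0 TPM in unmarked wild type and listed at 0 in the other 3 groups, so 2 libraries carry it. The difference of Igkv5-43 was not called without any one library other than unmarked Terc-/- or wild-type replicate 4 (adjusted p up to 0.10 in limma). None of these 5 genes was called in the marked comparison.

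5 genes differed in the other direction. Stfa3 (-4.02) and U90926 (-3.20) fell in the marked libraries and were not called in the unmarked ones (log2 change 0.82, adjusted p = 0.41 and log2 change -0.52, adjusted p = 0.56, limma). Wfdc17 (-3.52) fell from 6537, 9571 and 4911 TPM to 2039.5, 1961 and 1969.5 TPM in the marked libraries and rose from 185, 169 and 95.2 TPM to 461, 469 and 449 TPM in the unmarked ones. Dcn (-3.52) fell in the marked libraries, at the values given above, and rose from 6.47, 6.12 and 9.85 TPM to 20.1, 28.3 and 20.7 TPM in the unmarked ones (log2 change 1.54, adjusted p = 0.0081, limma). The chemokine Ccl4 (-3.75) was at 761, 1092 and 544 TPM in gaiwei wild type and 234, 239 and 228 TPM in 519 Terc-/-, without a call (log2 change -1.76, adjusted p = 0.077, limma), and rose from 10.3, 10.3 and 4.28 TPM to 35, 31.1 and 34 TPM in the unmarked libraries (log2 change 1.99, adjusted p = 0.0068, limma). Wfdc17 lost its marked call without any one library other than gaiwei replicate 3 (adjusted p up to 0.23), and Dcn without gaiwei replicate 2.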

How the results depend on the processing

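No gene called in the marked comparison changed sign under any alternative run. Other filters, one variance per group, the replicate block and fits of fewer groups leave the log2 change as it was. In those settings the sign was fixed in advance. Of 195 genes higher and 236 lower in the marked comparison, 463 and 517 were called with one variance per group, 365 and 443 in a fit of the 3 marked groups alone, and 143 and 139 on TPM as deposited, where higher calls outnumbered lower ones. In the unmarked comparison the 1950 higher genes became 1271 when only the groups compared were fitted. The 635 lower differences became 416 on TPM as deposited. Leaving out 1 library gave 91 to 182 higher and 110 to 244 lower genes in the marked comparison, 1381 to 2232 and 1449 to 1965 in the unmarked one, and 434 to 860 and 449 to 946 for the difference. The difference had 710 higher and 635 lower calls, but 434 and 453 without unmarked Terc-/- replicate 1 and 860 and 946 without unmarked wild-type replicate 1. The cause of these shifts was not tested beyond the smaller number of libraries in each fit. Depth in reads is unknown, so the precision of low levels could not be given.

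Deviations from the group means were correlated between libraries with the same replicate number. The correlations were -0.259, 0.011 and -0.043 in the marked and 0.072, -0.335 and 0.293 in the unmarked comparison. Between libraries of different number they ran from -0.243 to 0.301 and from -0.451 to 0.415. With so few libraries these values do not settle whether libraries were paired. With the number as a replicate block, 169 genes were higher and 201 lower in the marked comparison, 1821 and 1853 in the unmarked one, and 665 and 572 for the difference. With the replicate block and only the groups compared, these counts were 93 and 171, 766 and 932, and 477 and 342.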

Other observations

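Some gene families also held several called genes, and they were picked after their values were seen. They share members with the lists, such as Il1a, Il6, C1qc and Nr1h3, whose calls are counted again here. Of all genes tested, 1.87% were called lower and 1.55% higher. Of 12 ligands and receptors of the interleukin-1 family that were tested, 7 fell and none rose in 519 Terc-/- (median log2 change -1.23), and 3 fell without gaiwei replicate 2. Beside the genes described above they included Il1f6, one of the interleukin-36 ligands, at 0.923, 0.218 and 0.732 TPM against 5.93, 4.26 and 2.66 TPM in gaiwei wild type (log2 change -1.92, SE 0.22, adjusted p = 5.6e-06, limma), and the receptor Il1r1 at 0.558, 1.04 and 0.855 TPM against 4.57, 5.73 and 2.88 TPM (log2 change -1.73, SE 0.21, adjusted p = 1.5e-05, limma). Of 16 genes of the interleukin-6 family and its signalling, 8 fell and none rose (median -0.58), and 5 fell without gaiwei replicate 2, without 519 replicate 2 or without 519 replicate 3. Lif was at 13.9, 12.2 and 13.5 TPM against 25.1, 26.7 and 27.2 TPM (log2 change -1.01, adjusted p = 0.00027, limma), Osm at 35.8, 33.1 and 35 TPM against 75.2, 76.1 and 60.9 TPM (log2 change -1.06, adjusted p = 0.002, limma) and the inhibitor Cish at 2.9, 2.24 and 2.85 TPM against 8.92, 9.4 and 5.67 TPM (log2 change -1.39, adjusted p = 0.00097, limma). Of 7 costimulatory ligands 3 fell, but 1 without gaiwei replicate 2 or without 519 replicate 2. They included Cd80, which activates T cells, at 11.2, 12 and 14.1 TPM against 38.3, 36.8 and 25.9 TPM (log2 change -1.42, adjusted p = 1.5e-05, limma). The 6 genes given here with values were called in every alternative run.

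Of 12 genes of complement C1q and the clearance of dying cells, 5 rose and none fell (median 0.64), and 3 rose without gaiwei replicate 2. Cd5l, a secreted macrophage protein that is a known LXR target, was at 3.82, 2.3 and 2.36 TPM in 519 Terc-/- against 0.164, 0.296 and 0.318 TPM in gaiwei wild type (log2 change 1.79, SE 0.26, adjusted p = 0.00016, limma) and was called in every alternative run. Of 5 oxysterol and retinoid X receptors 3 rose (median 0.43), Nr1h3, Rxra (log2 change 0.43, adjusted p = 0.0069, limma) and Rxrg (log2 change 1.13, adjusted p = 0.003, limma). Rxra lost its call without 519 replicate 1 and on TPM as deposited, Nr1h3 without gaiwei replicate 1, and Rxrg with a pseudocount of 0.1. Rxra and Rxrg also lost it with the replicate block and only the groups compared. Of 8 clade B serpins 4 rose, and Serpinb2 alone fell. The 4 rises became 1 without gaiwei replicate 2 or without 519 replicate 1. Serpinb9, an inhibitor of granzyme B, was at 11.8, 8.25 and 10.7 TPM against 4.88, 4.2 and 6.02 TPM (log2 change 0.88, adjusted p = 0.0013, limma).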
